A study of Homo sapiens with 24 samples.

Results

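The MAP kinase phosphatases (the catalytically active DUSP family with a MAP kinase docking domain) were followed in RNA-seq of HEK293T, a human embryonic kidney cell line. The members were chosen by gene symbol, as the rows named DUSP1, DUSP2, DUSP4, DUSP5, DUSP6, DUSP7, DUSP8, DUSP9, DUSP10 and DUSP16, and are 10 of the 58884 genes listed. The RNA data hold 10 libraries in 2 separately made tables. The first table has 2 libraries of untreated wild-type cells (WT) and 2 of untreated cells labelled KO, in which both alleles of endogenous SETD2, the enzyme that trimethylates histone H3 at lysine 36, had been disrupted. The second table has 2 further untreated libraries labelled KO, 2 of KO cells carrying a full-length SETD2 construct (SETD2 FL) and 2 of KO cells carrying residues 1404 to 2564 of SETD2 (SETD2 C, called N3 in the sample labels). Every library of the second table therefore shares the targeted SETD2 background, and the constructs were driven by a CMV promoter with RNA taken 72 h after transfection. Since the KO libraries are labelled untreated, transfection and construct cannot be told apart in any comparison with them. SETD2 FL and SETD2 C were both transfected, but they differed in SETD2 transcript level, as given below. The number of clones behind the KO line is not given in the sources used here, and nothing in the labels says that libraries of a group came from separate cultures, so p-values measure the spread between these libraries, which may be technical.

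MAP kinases relay growth factor and stress signals and are switched off by removal of phosphate from a threonine and a tyrosine in their activation loop. The MAP kinase phosphatases remove both. DUSP1, DUSP2, DUSP4 and DUSP5 are nuclear enzymes encoded by genes that are rapidly induced by the signals they end, DUSP6, DUSP7 and DUSP9 are cytoplasmic and act mainly on ERK, and DUSP8, DUSP10 and DUSP16 act mainly on JNK and p38.

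Levels are given as TPM, which corrects for transcript length and has the same sum in each library, so the depth behind each value is unknown. Differences are log2 fold changes of scaled TPM plus 0.5 from limma, a scale on which changes of low genes come out too small. A gene is said to have passed where its limma p, adjusted by the Benjamini-Hochberg method over every gene tested, was at most 0.05, and to have been called where the fold was also at least 2. A single value compared between 2 and 2 libraries cannot go below p = 0.333 in an exact two-sided permutation test.

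SETD2 itself (ENSG00000181555) was at 12.6 and 14.8 TPM in WT and at 16.2 and 16.3 TPM in the libraries labelled KO of the first table, with a log2 fold change of 0.11 (SE 0.079, adjusted p = 0.408). Its transcript level therefore does not separate KO from WT. Within these RNA values, every direction drawn from the libraries labelled KO below rests on the label. For the KO cells, the paper reports loss of the histone mark that SETD2 deposits, in western blots and ChIP-seq, which were not analysed here. In the second table its level was 11.99 and 12.15 TPM in KO and 422 and 439 TPM with SETD2 FL. It was 1264 and 1329 TPM with SETD2 C, a log2 fold change of 1.46 against SETD2 FL (SE 0.058, adjusted p = 7.1e-06, limma). Construct and transcript level therefore cannot be told apart in the comparison of SETD2 C with SETD2 FL. The paper, by contrast, tested genes with edgeR and reports no significant difference between the transcript levels of these constructs in its RNA-seq. The TPM used here is per gene and not per construct. Markedly more protein of SETD2 C than of SETD2 FL is also reported there, and this likewise cannot be told apart from construct here. All 9 HEK293T markers were above 0 in all 10 libraries. In the second table the summed level of 12 markers of other cell types was 7.98 TPM in both libraries labelled KO, between 8.85 and 10.2 TPM for SETD2 FL and between 13.2 and 15.1 TPM for SETD2 C. Nearly all of it was from COL1A1 and COL3A1, without which the sum was between 0.31 and 1.24 TPM, and these were the 2 of the 12 that could be tested. Of the HEK293T markers, 3 (KRT8, NEFL and NEFM) were called higher with SETD2 C against both other groups. KRT5 was listed at 0 in all 6 libraries, and PTPRC, CD3E, HBB, KRT14 and CDH5 reached at most 0.12 TPM. The mitochondrially encoded share of TPM was lower with SETD2 C (2.93% and 3.37%) than in KO (7.04% and 6.23%) or with SETD2 FL (10.95% and 7.79%), and more genes were above 0 with SETD2 C (27104 and 26139, against 24306 to 25440 in the other 4 libraries). Their part in the differences below was not tested.

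DUSP1 had the largest log2 fold change of the 9 members tested, which leave out DUSP2. DUSP1 (ENSG00000120129, GRCh38 chr5:172768096-172771195, minus strand, 4 exons) encodes an inducible nuclear phosphatase of p38, JNK and ERK. It was at 22.6 and 24 TPM in the libraries labelled KO, at 18.4 and 21.1 TPM with SETD2 FL and at 81.7 and 84.4 TPM with SETD2 C. Both SETD2 C libraries lay far above the other 4, whereas both SETD2 FL libraries lay just below KO. The mean was 83.1 ± 1.9 TPM with SETD2 C (SD, n = 2), 19.7 ± 1.9 TPM with SETD2 FL and 23.3 ± 0.96 TPM in KO. The log2 fold change was 1.92 against SETD2 FL (SE 0.070, adjusted p = 4.5e-06, a 3.79-fold rise) and 1.66 against KO (SE 0.070, adjusted p = 8.4e-06, a 3.17-fold rise). These are the 44th and 94th highest values of 15933 genes tested, and DUSP1 was called in all 28 repeats of both comparisons under other settings or without 1 library, with log2 fold changes between 1.62 and 2.05. An antisense lncRNA over the gene, AC022217.3, was at 0.17 and 0.14 TPM with SETD2 C and listed at 0 in the other 4 libraries. In the first table it was at 0.22 TPM in the first WT library and listed at 0 in the rest. Whether the counting used strand is not given in the sources used here.

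The promoters of 8 members (all but DUSP4 and DUSP5) are in the RefSeq table used here (GRCh38.p14), which gives 250 bases before and 50 after each start site. Those of 3 members are shown because DUSP1 rose most among the tested members, DUSP8 carries the same cyclic AMP response element with a smaller change, and DUSP7 is the member that fell. They are chr5:172771146-172771445, chr11:1572222-1572521 and chr3:52056522-52056821, all on the minus strand, and the capitals mark TGACG on either strand and CACGTG.
DUSP1: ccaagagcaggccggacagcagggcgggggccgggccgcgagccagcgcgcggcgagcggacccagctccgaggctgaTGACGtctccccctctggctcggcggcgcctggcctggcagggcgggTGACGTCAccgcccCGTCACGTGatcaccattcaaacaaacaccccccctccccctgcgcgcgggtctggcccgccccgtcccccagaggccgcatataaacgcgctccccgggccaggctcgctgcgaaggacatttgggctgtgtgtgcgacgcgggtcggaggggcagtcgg
DUSP8: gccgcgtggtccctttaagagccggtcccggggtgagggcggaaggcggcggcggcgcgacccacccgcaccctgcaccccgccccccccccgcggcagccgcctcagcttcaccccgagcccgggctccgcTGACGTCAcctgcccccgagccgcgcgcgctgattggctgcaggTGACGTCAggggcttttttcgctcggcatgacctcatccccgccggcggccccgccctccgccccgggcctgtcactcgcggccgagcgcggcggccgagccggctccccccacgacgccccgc
DUSP7: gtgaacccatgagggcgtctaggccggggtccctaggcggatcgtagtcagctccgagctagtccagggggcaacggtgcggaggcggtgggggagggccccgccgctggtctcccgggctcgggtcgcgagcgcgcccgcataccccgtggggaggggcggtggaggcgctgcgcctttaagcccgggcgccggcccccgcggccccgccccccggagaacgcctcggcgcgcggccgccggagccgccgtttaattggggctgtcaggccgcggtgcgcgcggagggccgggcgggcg
The full cyclic AMP response element TGACGTCA was found on searching both strands in 1.848% of all 35116 promoters in that table. DUSP1 holds 1 copy, at -125 from the start site, and DUSP8 holds 2 copies, at -118 and -74. Its half-site TGACG, which occurs in both strands of each full element, was in 24.553% of promoters and 4 times in each of DUSP1 and DUSP8. The E-box CACGTG was in 7.256% of promoters, with 1 copy in DUSP1 at -108, overlapping a half-site, and 1 in DUSP2. A TATAAA motif, in 11.53% of promoters, stood at -30 in DUSP1 and in no other member searched, and the CArG box, in 1.293%, was in none. In DUSP10, which has 2 start sites in the table, a single half-site was found, and DUSP6, DUSP7, DUSP9 and DUSP16 held no match to these motifs. These matches are descriptions of letters and not sites of binding.

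**Figure D1:**
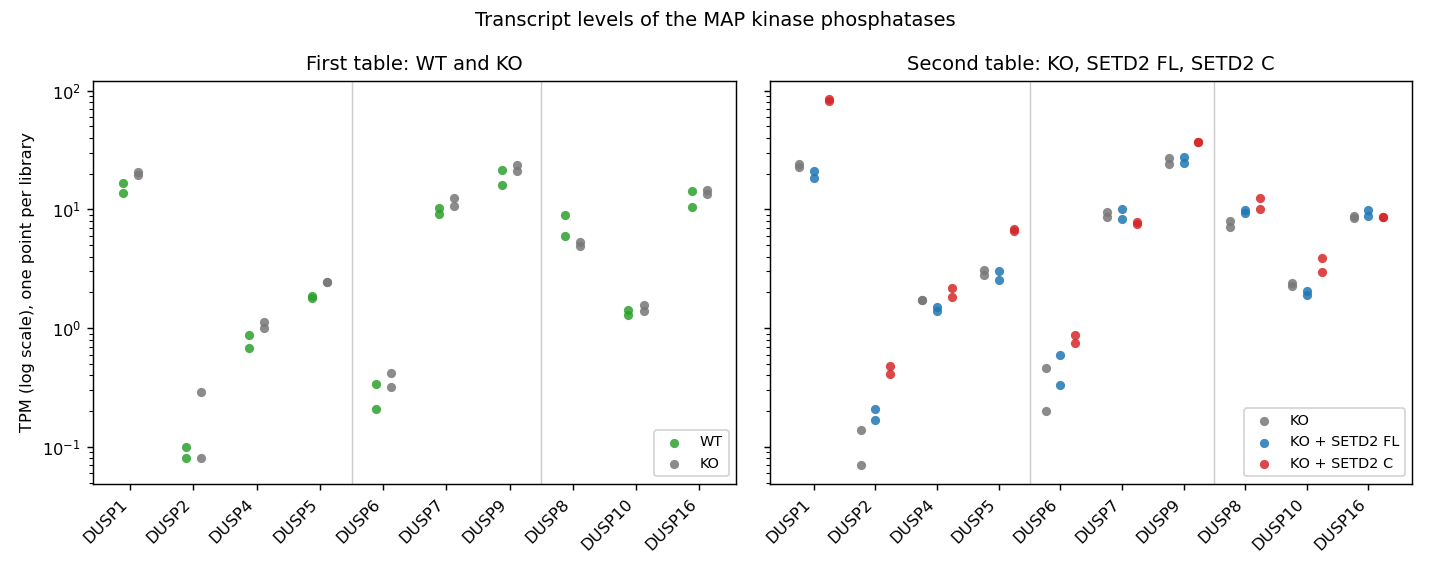
TPM of each MAP kinase phosphatase in every library (points), with the 4 libraries of the first table and the 6 of the second kept apart. DUSP1 stands at 81.7 and 84.4 TPM with SETD2 C and at 24 TPM or below in every other library.

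The other nuclear inducible members lay lower in every library. DUSP5 (ENSG00000138166, chr10:110497907-110511533, plus strand), a nuclear phosphatase specific for ERK, was at 3.06 and 2.83 TPM in KO, 2.52 and 3.05 TPM with SETD2 FL and 6.56 and 6.83 TPM with SETD2 C. The SETD2 C libraries stood apart above the other 4, in which KO and SETD2 FL overlapped. DUSP5 rose by 1.02 on the log2 scale against SETD2 FL (SE 0.11, adjusted p = 0.00057, 2.03-fold) and by 0.93 against KO (SE 0.11, adjusted p = 0.00097, 1.90-fold). The value lay at the 2-fold limit, and DUSP5 was called in 13 of 28 repeats. It was no longer called against SETD2 FL without the third SETD2 FL library (log2 fold change 0.93, adjusted p = 0.0046) or without the second SETD2 C library (0.99, adjusted p = 0.0064), although it passed in all 28. A pseudogene copy, DUSP5P1, was at 0.45 and 0.56 TPM in KO, 0.35 and 0.66 TPM with SETD2 FL and 1.05 and 0.75 TPM with SETD2 C, and reads shared with it could be split between the pair.

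DUSP4 (ENSG00000120875, chromosome 8, minus strand), an inducible nuclear phosphatase of ERK and JNK, was at 1.73 and 1.72 TPM in KO, 1.39 and 1.52 TPM with SETD2 FL and 2.20 and 1.84 TPM with SETD2 C. It did not pass against KO (log2 fold change 0.06, 95% interval -0.26 to 0.38, adjusted p = 0.766) or SETD2 FL (0.26, -0.056 to 0.58, adjusted p = 0.166). DUSP2 (ENSG00000158050, chr2:96143169-96145440, minus strand), an inducible nuclear phosphatase prominent in immune cells, was at 0.14 and 0.070 TPM in KO, 0.17 and 0.21 TPM with SETD2 FL and 0.41 and 0.48 TPM with SETD2 C. It missed the filter of 0.5 TPM in 2 libraries and was not tested. With no filter beyond a TPM above 0 its log2 fold change was 0.59 against KO (adjusted p = 0.017) and 0.40 against SETD2 FL (adjusted p = 0.042).

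Among the cytoplasmic ERK phosphatases, DUSP9 rose and DUSP7 fell with SETD2 C. DUSP9 (ENSG00000130829, chrX:153642492-153651326, plus strand), the member with the highest TPM in the KO and SETD2 FL libraries, was at 26.8 and 24.3 TPM in KO, 24.4 and 27.5 TPM with SETD2 FL and 36.9 and 36.8 TPM with SETD2 C. The SETD2 C libraries lay above the other 4, which overlapped. Its log2 fold change was 0.37 against KO (SE 0.071, adjusted p = 0.0058) and 0.37 against SETD2 FL (SE 0.071, adjusted p = 0.0053), and it passed in all 28 repeats with log2 fold changes between 0.31 and 0.52.

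DUSP7 (ENSG00000164086, chr3:52048919-52056571, minus strand) was at 9.42 and 8.55 TPM in KO, 8.29 and 10.1 TPM with SETD2 FL and 7.54 and 7.79 TPM with SETD2 C. Both SETD2 C libraries lay below the other 4, and DUSP7 fell by 0.35 on the log2 scale against KO (SE 0.099, adjusted p = 0.026) and by 0.36 against SETD2 FL (SE 0.099, adjusted p = 0.023). The difference from KO no longer passed without the second KO library (adjusted p = 0.123), the first SETD2 C library (adjusted p = 0.095) or the second (adjusted p = 0.081), and that from SETD2 FL without the fourth SETD2 FL library (adjusted p = 0.126), the first SETD2 C library (adjusted p = 0.084) or the second (adjusted p = 0.073). Without scaling between libraries, which raised the median of all genes tested to 0.18 against KO and 0.16 against SETD2 FL, DUSP7 passed in neither comparison (log2 fold changes -0.21 and -0.24). Over the 28 repeats of both comparisons DUSP7 passed in 17.

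DUSP6 (ENSG00000139318, chr12:89347235-89352501, minus strand), a feedback phosphatase of ERK, was near the limit of the filter, at 0.46 and 0.20 TPM in KO, 0.33 and 0.60 TPM with SETD2 FL and 0.75 and 0.88 TPM with SETD2 C. It was tested only because the fourth SETD2 FL library and both SETD2 C libraries reached 0.5 TPM. It did not pass (0.60 against KO, adjusted p = 0.078, and 0.39 against SETD2 FL, adjusted p = 0.222).

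Of the JNK and p38 phosphatases, none was called. DUSP8 (ENSG00000184545, chr11:1554051-1572271, minus strand) was at 7.99 and 7.14 TPM in KO, 9.40 and 9.80 TPM with SETD2 FL and 12.4 and 10.1 TPM with SETD2 C. All 4 transfected libraries lay above both KO libraries. It passed against KO (log2 fold change 0.40, SE 0.11, adjusted p = 0.027), but not without the fourth KO library (0.33, adjusted p = 0.126) or the first SETD2 C library (0.25, adjusted p = 0.141). SETD2 C and SETD2 FL did not differ beyond the spread between libraries (0.09, 95% interval -0.17 to 0.35, adjusted p = 0.56). Over the 28 repeats of both comparisons DUSP8 passed in 9. A pseudogene copy, DUSP8P5, was at 1.42 to 2.47 TPM in these 6 libraries, highest with SETD2 C.

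DUSP10 (ENSG00000143507, chr1:221701424-221742089, minus strand) was at 2.26 and 2.38 TPM in KO, 1.90 and 2.05 TPM with SETD2 FL and 2.98 and 3.9 TPM with SETD2 C. It passed against SETD2 FL (log2 fold change 0.55, SE 0.14, adjusted p = 0.018) and not against KO (0.35, adjusted p = 0.091). The former was lost without the third SETD2 FL library (adjusted p = 0.072), the fourth (adjusted p = 0.057) or the second SETD2 C library (0.39, adjusted p = 0.12), and with quantile normalization (0.31, adjusted p = 0.134). Over the 28 repeats of both comparisons DUSP10 passed in 11. DUSP16 (ENSG00000111266, chr12:12473282-12562863, minus strand), a JNK phosphatase, was the steadiest of the better-expressed members, at 8.80 and 8.43 TPM in KO, 8.74 and 9.82 TPM with SETD2 FL and 8.58 and 8.65 TPM with SETD2 C. It did not pass against KO (-0.14, 95% interval -0.33 to 0.049, adjusted p = 0.213) or SETD2 FL (-0.22, -0.41 to -0.032, adjusted p = 0.065).

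**Figure D2:**
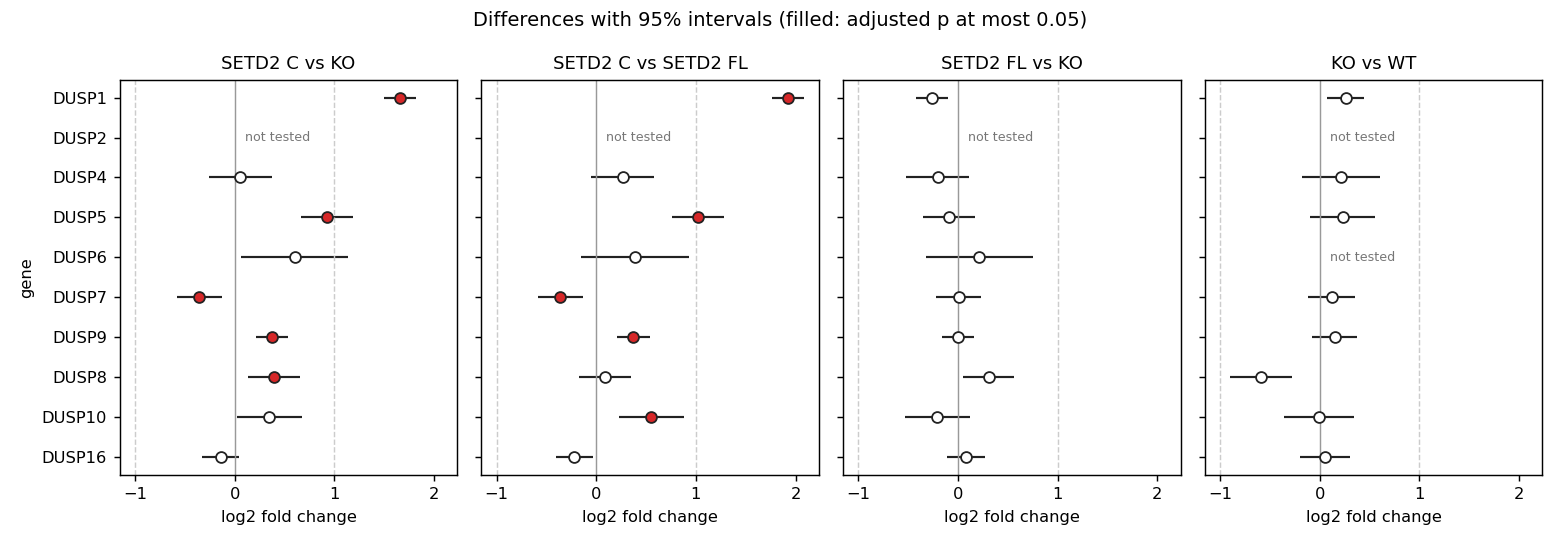
Log2 fold changes of the members (points) with 95% intervals (bars) in the 4 comparisons. DUSP1 lies at 1.92 and 1.66 with SETD2 C, and every interval of SETD2 FL against KO lies between -0.53 and 0.75.

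Over the family, 9 members were tested in the second table. Against SETD2 FL, 2 were called higher (DUSP1 and DUSP5), where 3.36% of all genes were, and none was called lower, where 0.421% of all genes were. At the adjusted p alone 4 passed higher, against 21.4% of all genes, and 1 lower, against 16.8%. Against KO, DUSP1 alone was called higher, where 3.75% of all genes were, and none lower, where 0.314% were. Here 4 passed higher and 1 lower, against 21.1% and 15.1% of all genes. The median log2 fold change of the tested members was 0.37 in each comparison, beside 0.04 and 0.05 over all genes tested. The SETD2 C libraries are shared by the comparisons.

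**Figure D3:**
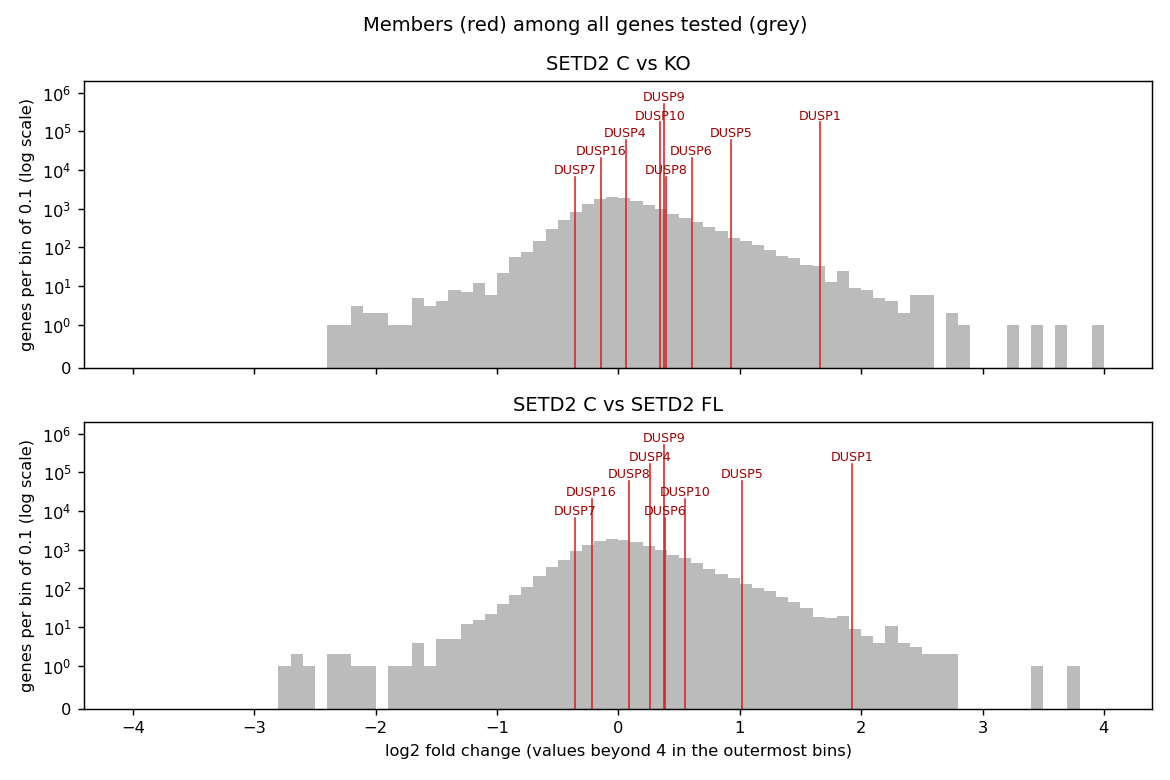
Distribution of log2 fold changes of all 15933 genes tested (grey bars, number of genes per bin on a log scale) with the members as red lines, for SETD2 C against KO (top) and against SETD2 FL (bottom). DUSP1 lies in the upper tail, at 1.66 and 1.92, and most other members lie within the bulk.

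The make-up of the family shifted with DUSP1. The summed TPM of the 10 members was 83.3 and 79.6 in KO, 75.6 and 85.7 for SETD2 FL, but 160.1 and 161.6 for SETD2 C. DUSP1 took 27.2% and 30.1% of the sum in KO, 24.4% and 24.6% for SETD2 FL, but 51.0% and 52.2% for SETD2 C. DUSP9, which led the family in KO (32.2% and 30.5%) and with SETD2 FL (32.3% and 32.1%), took 23.1% and 22.8% with SETD2 C. Without DUSP1 the sum was 60.7 and 55.6 TPM in KO, 57.1 and 64.6 TPM with SETD2 FL and 78.4 and 77.2 TPM with SETD2 C. These sums are of TPM before scaling. The factors that scaling divided by were 1.063 and 1.069 for SETD2 C and between 0.9562 and 0.9944 for KO and SETD2 FL, so scaling would narrow the gap.

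**Figure D4:**
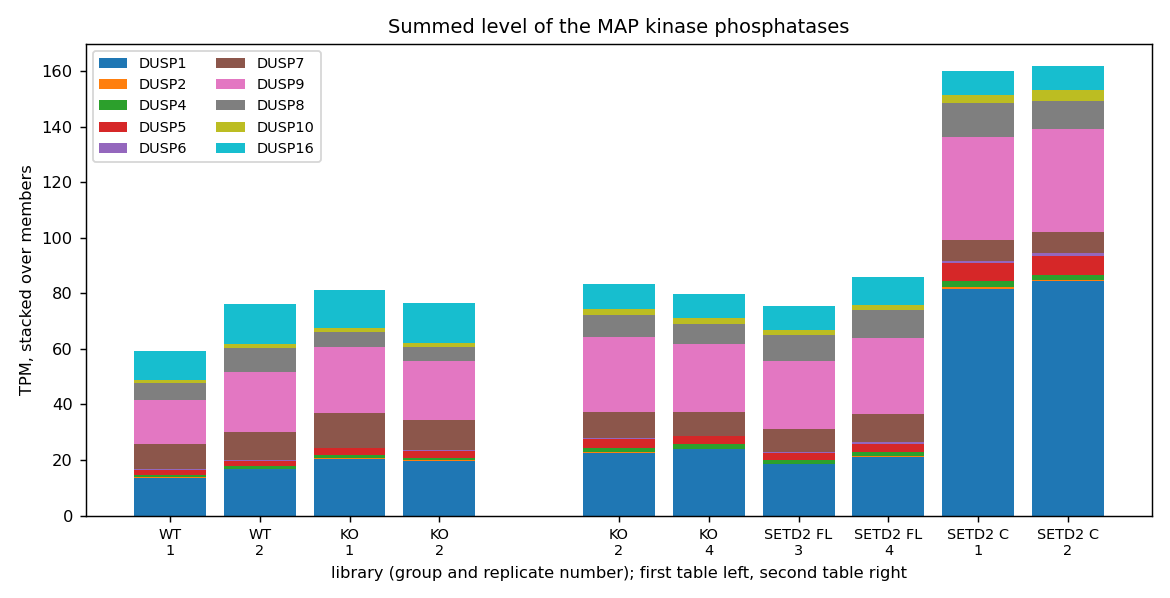
Summed TPM of the 10 members in each library, divided by member. The DUSP1 portion grows from 24.4% to 30.1% of the sum in the KO and SETD2 FL libraries of the second table to 51.0% and 52.2% with SETD2 C.

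With SETD2 FL no member passed against the libraries labelled KO, where 0.207% of all 15933 genes passed and 0.0816% were called in either direction. Of the 9 tested members, 2 had an unadjusted p under 0.05. DUSP1 was lower (-0.26, 95% interval -0.42 to -0.096, adjusted p = 0.178) and DUSP8 higher (0.31, 0.049 to 0.57, adjusted p = 0.254), and the other 7 had log2 fold changes between -0.21 and 0.22. For DUSP6, low in every library, the log2 fold change was 0.41 with an SE of 0.42 at a pseudocount of 0.1. The KO libraries are shared with the comparison of SETD2 C with KO.

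No member passed between the libraries labelled KO and WT in the first table, where 4.48% of 14746 genes passed and 1.36% were called in either direction. DUSP8 was nearest, at 5.95 and 8.89 TPM in WT and 5.27 and 4.96 TPM in KO. Both KO libraries lay below both WT libraries, which differed widely from each other, and the log2 fold change was -0.59 (SE 0.13, adjusted p = 0.057). DUSP8 passed without the first WT library (-0.75) and with a replicate block, as given at the end. DUSP1 was at 13.7 and 16.8 TPM in WT and 20.5 and 19.6 TPM in KO (0.26, SE 0.078, adjusted p = 0.106). These were the 2 members of 8 tested with an unadjusted p under 0.05.

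The other members of the first table showed smaller differences. DUSP4 was at 0.68 and 0.88 TPM in WT and 1.13 and 1.01 TPM in KO, and DUSP5 at 1.81 and 1.87 TPM in WT and 2.44 and 2.47 TPM in KO, with log2 fold changes of 0.22 and 0.23. DUSP7, DUSP9, DUSP10 and DUSP16 had log2 fold changes between -0.01 and 0.15. DUSP2 (0.080 to 0.29 TPM) and DUSP6 (0.21 to 0.42 TPM) missed the filter. The WT libraries also differed from KO in mitochondrial share, at 23.2% and 14.1% against 11.99% and 12.4%, and its part in these values was not tested.

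The order of levels was alike in both tables, which were not set on one scale. DUSP9 and DUSP1 led in every library, with DUSP7, DUSP8 and DUSP16 next, and DUSP2 and DUSP6 last. DUSP9 was above DUSP1 in all 8 libraries without SETD2 C, although the WT values of the pair overlapped, and DUSP1 was above DUSP9 in both libraries with SETD2 C.

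Genes of the pathways these phosphatases act on were read from 9 hand-written lists. Among 10 MAP kinases, 1 passed higher and 2 lower with SETD2 C against KO, where 21.1% of all genes passed higher and 15.1% lower, and 2 higher and 0 lower against SETD2 FL, where 21.4% and 16.8% did. The counts of the lists below are set beside the same shares. MAPK11, a p38 kinase, rose against KO (log2 fold change 0.65, adjusted p = 0.0094) but missed the threshold without the fourth KO library (adjusted p = 0.0502) or the second SETD2 C library (adjusted p = 0.0555). Against SETD2 FL those that passed were MAPK11 and MAPK14. The pass of MAPK11 was lost under several settings, among them quantile normalization (adjusted p = 0.0928, limma) and all gene types (0.0747). It was also lost without the fourth SETD2 FL library (log2 fold change 0.28) or the first (0.46) or second SETD2 C library (0.36). MAPK14 lost its pass without a trend (adjusted p = 0.0644, limma) and with only the groups compared (0.0632). It also lost it when any 1 library of the comparison was left out (log2 fold changes between 0.17 and 0.21). MAPK3, which encodes ERK1, fell against KO (-0.25, adjusted p = 0.0069), although not without scaling between libraries (-0.099, adjusted p = 0.199).

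The MEK genes upstream of ERK moved in opposite directions. MAP2K1 rose with SETD2 C (0.56 against KO, adjusted p = 0.0013, and 0.45 against SETD2 FL, adjusted p = 0.0026), and MAP2K2 fell (-0.57, adjusted p = 0.00055, and -0.37, adjusted p = 0.0027). Of 7 MAP kinase kinases, 1 passed higher and 1 lower against KO, and 2 and 2 against SETD2 FL. Of 6 RAS and RAF genes, 1 passed higher and 1 lower in each comparison. The higher one, BRAF, a RAF kinase that activates MEK, was at 8.07 and 7.85 TPM in KO, 8.39 and 8.66 TPM with SETD2 FL and 16.2 and 20.5 TPM with SETD2 C. It was called against KO (log2 fold change 1.003, adjusted p = 0.00062) at the 2-fold limit, below which it fell without the fourth KO library (0.99) or the second SETD2 C library (0.84). Against SETD2 FL it passed (0.93, adjusted p = 0.00072), and was called without the first SETD2 C library (1.09).

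Among 11 kinases that MAP kinases activate, RPS6KA4, which encodes MSK2, fell with SETD2 C against KO (-0.52, adjusted p = 0.0037) and SETD2 FL (-0.61, adjusted p = 0.0017), and MAPKAPK3 fell against KO (-0.47, adjusted p = 0.0023). In this list 1 passed higher and 2 lower in each comparison. The higher one, RPS6KA6, no longer passed with quantile normalization (adjusted p = 0.375 against KO and 0.371 against SETD2 FL, limma). Nor did it with all gene types (0.0651 and 0.0703), or when any 1 library of either comparison was left out. In the latter fits its log2 fold changes were 0.320 to 0.605 against KO and 0.303 to 0.588 against SETD2 FL. Of 15 atypical relatives of the family, which lack the MAP kinase docking domain or catalytic activity, 11 were tested. Against KO 2 passed higher and 0 lower, and against SETD2 FL 1 higher and 1 lower. DUSP12 was the one that passed in both (0.30, adjusted p = 0.0084 against KO, and 0.32, adjusted p = 0.0057 against SETD2 FL), and its difference from KO missed the threshold without the first SETD2 C library (0.26, adjusted p = 0.0516).

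Of the genes listed as other feedback inhibitors of RAS-ERK signalling, 9 were tested. Of these, 5 passed higher and 1 lower in each comparison, beside the 21.4% and 16.8% of all genes against SETD2 FL given above. IER3 was called, an early response gene that is also in the immediate early list. Whether it acts as an inhibitor was not tested. It was at 60.3 and 64.0 TPM with SETD2 C against 14.1 to 15.7 TPM in the other 4 libraries (log2 fold change 1.94 against SETD2 FL, adjusted p = 3.6e-06, limma, and 1.82 against KO). The other 4 that passed higher were SPRY1, SPRY2, SPRED2 and ERRFI1, and the gene that fell was LRIG1. The pass of SPRY2 against KO was lost without the second (adjusted p = 0.0610) or the fourth KO library (0.183), or the first (0.0602) or the second SETD2 C library (0.193) and under 5 other settings, quantile normalization among them (0.0602), and that against SETD2 FL without the second SETD2 C library (0.0518). The pass of SPRED2 against SETD2 FL was lost without the fourth SETD2 FL library (0.0643) or the first SETD2 C library (0.0637).

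Immediate early genes, the class to which DUSP1 belongs by its rapid induction, formed the longest of the 9 lists. Of 19 tested, 6 were called higher with SETD2 C against SETD2 FL, where 3.36% of all genes were, and 5 against KO, where 3.75% were, and none was called lower. At the adjusted p alone 12 passed higher against SETD2 FL and 13 against KO, beside 21.4% and 21.1% of all genes, and 1 lower in each. FOS, which encodes an AP-1 subunit, was at 1.82 and 1.69 TPM in KO, 2.38 and 2.43 TPM with SETD2 FL and 14.1 and 14.6 TPM with SETD2 C (log2 fold change 2.24 against SETD2 FL and 2.59 against KO). JUNB, its AP-1 partner, was at 7.78 and 7.59 TPM, 8.26 and 8.51 TPM, and 28.4 and 27.2 TPM in the same order (1.55 and 1.64). MYC was the gene that fell (-0.59 against SETD2 FL, adjusted p = 0.00050, and -0.76 against KO, adjusted p = 0.00020).

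ERK output genes did not share one direction. Of 9 tested, 1 passed higher and 2 lower against SETD2 FL, and 3 higher and 1 lower against KO. The one counted higher against SETD2 FL was ETV5, a transcription factor induced by ERK, which reached the filter only through the SETD2 C libraries. It was at 0.19 and 0.11 TPM in KO, 0.20 and 0.37 TPM with SETD2 FL and 0.73 and 0.85 TPM with SETD2 C. Its pass against SETD2 FL (log2 fold change 0.66, adjusted p = 0.039) was lost without the third (adjusted p = 0.175) or the fourth SETD2 FL library (adjusted p = 0.0556) and with a pseudocount of 0.1 (adjusted p = 0.0641), quantile normalization or all gene types, and that against KO without the fourth KO library (adjusted p = 0.0567) and with quantile normalization. ETV1 and EGR1 were also counted higher against KO. Neither passed there with quantile normalization (adjusted p = 0.331 and 0.308, limma) or with all gene types (0.0648 and 0.0536). MYC, listed here too, fell as given above.

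The 8 genes whose proteins were listed for binding AU-rich elements, which mark short-lived transcripts, were also mixed, with 3 passing higher and 2 lower against SETD2 FL and 2 and 2 against KO. ZFP36, which promotes decay of such transcripts, rose against SETD2 FL (0.66, adjusted p = 0.0095) and KO (0.85, adjusted p = 0.0037), as did ZFP36L1 against SETD2 FL (0.54, adjusted p = 0.00082). Those that passed lower in both comparisons were ZFP36L2 and KHSRP. Without scaling between libraries neither passed against KO (adjusted p = 0.146 and 0.804, limma) or SETD2 FL (0.128 and 0.167). No gene of these 9 lists passed between SETD2 FL and KO in limma, where 18 of 87 tested had an unadjusted p under 0.05. Between KO and WT, NRAS passed higher (0.43, adjusted p = 0.032) and ATF3 lower (-0.48, adjusted p = 0.025), neither of them without the first WT library (adjusted p = 0.0898 and 0.0665), the first KO library (0.0987 and 0.0676) or the second KO library (0.202 and 0.168).

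**Figure D5:**
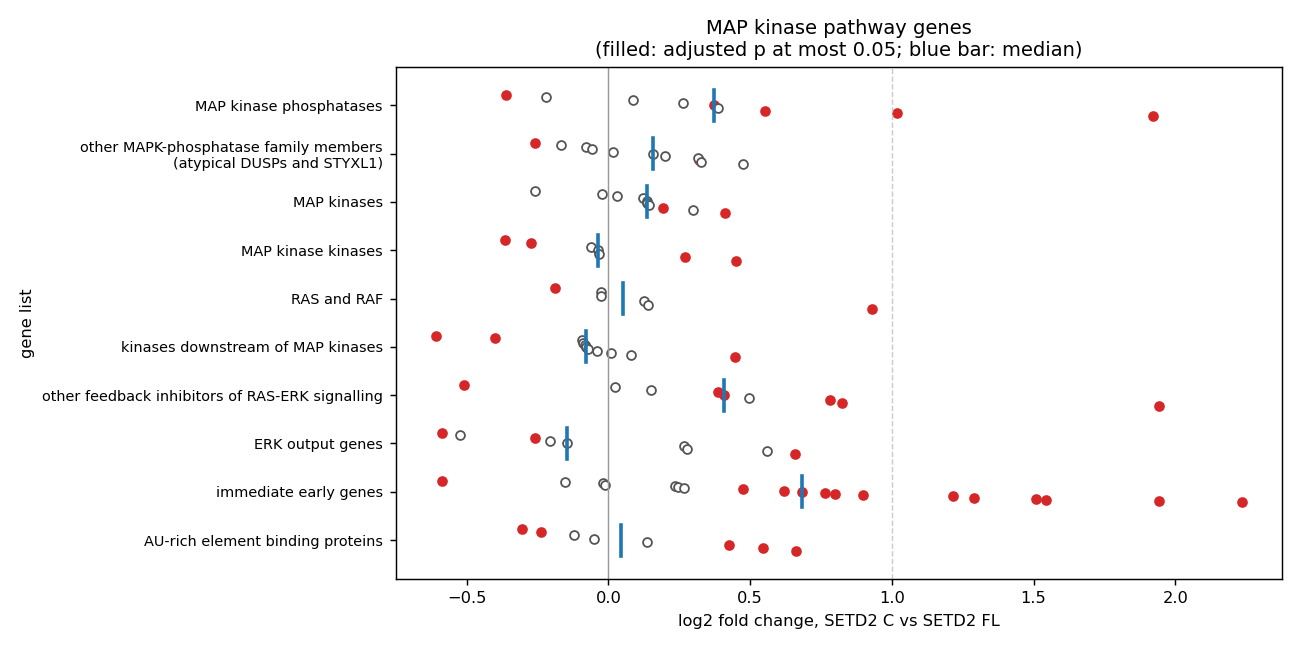
Log2 fold changes of SETD2 C against SETD2 FL for each tested gene of the MAP kinase lists (points, filled where the adjusted p was at most 0.05), with the median of each list as a blue bar and the 2-fold limit as a dashed line. The members' median is 0.37, and that of the immediate early genes is 0.68.

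The members also differed in features that their selection did not use. Their reference transcripts have 3 to 7 exons, beside a median of 8 over 19538 protein-coding genes with an annotated 3 prime UTR. DUSP1 and DUSP2 are the shortest genes, with 3100 and 2272 bases from start to end, and DUSP16 the longest with 89582. The 3 prime UTR of DUSP1 is 666 nt long and holds 4 ATTTA pentamers, the core of AU-rich elements, or 6.0 per kb, the highest density in the family. DUSP16 holds 8 in 3551 nt, DUSP4 6 in 3962 nt and DUSP8, like DUSP1, 4, in 2467 nt. DUSP2 holds 3 in 654 nt and DUSP10 3 in 988 nt, while DUSP6 and DUSP9 hold 1 each and DUSP5 and DUSP7 hold 0. The median over protein-coding genes is 2 in 1064 nt, and 34.1% of them hold at least 4.

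Among all other genes tested, those whose log2 profile over the 6 libraries of the second table lay nearest to that of DUSP1 were PDK1 (Euclidean distance 0.12 between profiles centred on their means), AC097534.2 (0.18), AP002852.1 (0.19), IER3 (0.19) and NDRG1 (0.20). For DUSP5 they were BX322562.1 (0.14), EGLN1 (0.14), AL109653.3 (0.14), KDM3A (0.14) and SYTL5 (0.14). These are descriptions over 6 libraries, which all genes share.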

How the data were processed

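RNA-seq of 10 libraries was used, and the 14 ChIP libraries of the study were not analysed here. The authors demultiplexed reads with bcl2fastq 2.18, aligned them with STAR 2.6.1c to hg38 with Ensembl gene models and deposited TPM values per gene from RSEM 1.3.0, in 2 tables. TPM keeps no depth, so no counting error can be given. Of 58884 genes, 58472 had an identifier in GENCODE 44 (GRCh38), 31 more a symbol and 381 neither. Libraries of a table were scaled to each other by median ratios, taken over genes of at least 1 TPM throughout. Protein-coding and lncRNA genes with at least 0.5 TPM in at least 2 libraries entered limma 3.58.1 (R 4.3.3, eBayes with a trend) after a pseudocount of 0.5 and log2 transformation, with Benjamini-Hochberg adjustment. One fit covered the 6 libraries of the second table. The procedure was tested on simulated data.

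The members, gene lists and tests were chosen with earlier results of these data known. Among these, the paper reports from its RNA-seq that DUSP1, DUSP2 and DUSP5 rose when SETD2 accumulated. Of them, DUSP2 missed the filter here. All members and SETD2 were named, with up to 3 called genes per direction in each list (or up to 2 that passed where none was called), and the remaining or less stable ones of these were given by count. For DUSP1 and DUSP5 the 5 genes of nearest profile were named. Genes named beyond the rule, such as the remaining genes of the feedback inhibitor list that passed, were chosen after their values were seen. Alternatives were pseudocounts of 0.1 and 1, other filters, no scaling, quantile normalization, TPM rescaled without mitochondrial genes and SETD2, no trend, all gene types, only the groups compared, adjusted p alone, a replicate block and leaving out each library. Promoters came from RefSeq (GRCh38.p14), and 3 prime UTRs from GENCODE 44.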

Additional observations from a re-analysis of the deposited data

How the results depend on the processing

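Called members numbered 1 against KO and 2 against SETD2 FL. Against KO they were 2 with a pseudocount of 0.1, without scaling and with TPM rescaled without mitochondrial genes and SETD2, and 5 at the adjusted p alone. Against SETD2 FL they were 1 with a pseudocount of 1 and with quantile normalization, between 1 and 2 without 1 library, and 5 at the adjusted p alone. Called genes of the pathway lists numbered 6 in each, and 37 against KO and 38 against SETD2 FL at the adjusted p alone. Between KO and WT they were 0, 2 at the adjusted p alone and between 0 and 1 without 1 library, the 1 being RPS6KA6 without the first WT library.

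Of 485 values of single members under alternatives, 21 no longer passed, 7 newly passed and none that passed turned its direction. The sign differed in 19 values that passed in neither setting, among them DUSP4 against KO with quantile normalization. Over all genes, calls numbered 647 against KO (301 to 1080 under alternatives with the same threshold), 603 for SETD2 C against SETD2 FL (308 to 957), 13 for SETD2 FL against KO (2 to 21) and 200 for KO against WT (73 to 240). Of genes that passed against KO, 58.3% were higher, beside 83.1% without scaling and 46.8% with quantile normalization. Against SETD2 FL these shares were 56.0%, 77.5% and 46.8%, and between KO and WT 29.3%, 53.3% and 35.0%.

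In the first table replicate numbers recur in WT and KO, and the main fit treated the libraries as unpaired. With only 2 pairs, a correlation of their deviations of 0.147 cannot show whether they were paired. With a replicate block 0 members were called and 214 genes in all, and DUSP8 passed (log2 fold change -0.59, adjusted p = 0.043, limma). No paired analysis was possible in the second table because its groups share fewer than 2 replicate numbers. TPM limits the values of DUSP2 and DUSP6, whose depth is unknown.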
